A study of Mus musculus with 9 samples.

Results

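The 7 genes described here encode surface molecules through which a macrophage signals to lymphocytes: Cd80, Cd86, Icosl and Cd274 of the B7 family, Cd40 and Tnfsf9 of the tumour necrosis factor receptor and ligand families, and Cd83. They were taken by gene symbol from the deposited expression table, and all 7 were present among its 12204 genes and passed the filter on low values. The rule names the genes and uses no threshold on their values.

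The cells were bone marrow-derived macrophages of C57/Bl6J mice, grown out of marrow over 6 days in medium with 20% (volume per volume) supernatant of L929 cells, a fibroblast line that secretes macrophage colony-stimulating factor. All libraries share this background, and 3 groups of 3 libraries were made from it. UT was untreated. LPS received 10 ng/ml lipopolysaccharide, the bacterial ligand of Toll-like receptor 4, for 4 h. LPS + BMS received 50 µM BMS303141, an inhibitor of ATP-citrate lyase, for 1 h and then the same LPS treatment. ATP-citrate lyase makes acetyl-CoA in the cytosol and nucleus from citrate. The study asked how Toll-like receptor signals and this enzyme act on macrophage metabolism and histone acetylation. A group with BMS303141 and no LPS was not part of the samples analysed, and no vehicle is named. The labels do not say whether the 3 libraries of a group came from separate mice or cultures, so every p-value below is set against library-to-library spread that could be technical.

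T cells need more than antigen to respond. CD80 and CD86 bind CD28, which promotes activation, and CTLA-4, which restrains it. ICOS ligand binds ICOS on activated T cells, and PD-L1, the product of Cd274, binds the inhibitory receptor PD-1. CD40 is a receptor on the antigen-presenting cell that is engaged by CD40 ligand on T cells, and 4-1BB ligand, the product of Tnfsf9, binds 4-1BB. CD83 is a membrane protein of mature antigen-presenting cells that protects MHC class II and CD86 from the ubiquitin ligase MARCH1. Macrophages are known to raise several of these molecules after Toll-like receptor stimulation.

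Poly(A) RNA was sequenced from its 3′ end, so a read falls near the end of a transcript and values are not scaled by length. Levels are log2 CPM, the log2 of read counts scaled to a common library total, quantile-normalised across the 9 libraries, and are compared between libraries for a gene, never between genes. Read depth, estimated from the step between low values, was about 3.29 to 4.91 M (mega) reads in UT, 1.8 to 3.2 M in LPS and 3.47 to 3.69 M in LPS + BMS. LPS replicate 1 was the shallowest and stood apart on the second principal component, at -63.1 against 1.31 and -5.48 for LPS 2 and LPS 3. Calls of members that change without it are named below. In bulk RNA, fewer cells carrying a transcript and less of it per cell cannot be told apart.

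In GRCm38, with the gene models of GENCODE M21, Cd80 (ENSMUSG00000075122) lies on the forward strand at chr16:38455561-38496335 and Cd86 (ENSMUSG00000022901) on the reverse strand of the same chromosome at chr16:36603869-36666081. Icosl (ENSMUSG00000000732) occupies chr10:78069302-78083913, Cd274 (ENSMUSG00000016496) chr19:29367455-29388095 and Cd40 (ENSMUSG00000017652) chr2:165055627-165072948, all on the forward strand. Cd83 (ENSMUSG00000015396) is at chr13:43784775-43803132 and Tnfsf9 (ENSMUSG00000035678) at chr17:57105325-57107757, both forward. Cd40 has 4 annotated coding transcripts with 4 different 3′ ends, Cd80 has 3 and Icosl has 2, and reads of these ends were summed per gene. The other 4 members have 1 coding transcript each. Exons of Cd274 and Tnfsf9 overlap exons of AC119228.1 and Gm11110 on the other strand; how strand was used in counting is not given in the sources used here, so reads of those partners cannot be told apart from the members' own.

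RefSeq promoter windows (GRCm38.p6) were matched for 3 of the 7 members, Cd80, Cd274 and Icosl. They are shown because no window was matched for the other members. How these sequences relate to the response to LPS was not tested. Each is the forward strand, 5′ to 3′, limited to bases upstream of the RefSeq start that hold no annotated exon; the Cd80 stretch lies inside the longer GENCODE gene model, between its exons. Capitals mark a match to TGANTCA, letters looser than the AP-1 consensus because N allows any base in the middle. The marked stretch has T there, so it matches these loose letters and not the consensus itself.
Cd80, chr16:38458683-38458932: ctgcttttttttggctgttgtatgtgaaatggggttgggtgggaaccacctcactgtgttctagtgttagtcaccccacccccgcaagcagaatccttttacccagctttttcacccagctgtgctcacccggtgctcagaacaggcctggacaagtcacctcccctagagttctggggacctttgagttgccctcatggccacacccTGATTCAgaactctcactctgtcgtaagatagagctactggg
Cd274, chr19:29367391-29367437: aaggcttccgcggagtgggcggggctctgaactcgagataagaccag
Icosl, chr10:78069118-78069301: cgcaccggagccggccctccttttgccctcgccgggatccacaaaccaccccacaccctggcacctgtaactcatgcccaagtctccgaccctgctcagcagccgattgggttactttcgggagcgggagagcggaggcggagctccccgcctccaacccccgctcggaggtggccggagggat

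The 250 bases upstream of each start were searched on both strands for the loose AP-1 letters TGANTCA and the NF-kB consensus. Also searched were the interferon regulatory factor element (GAAA, NN, then GAAA) and the STAT element TTCNNNGAA. The match in Cd80 was the only one in the 3 windows. Of all 32851 promoter windows in the table, 6.75% held the AP-1 letters, 2.98% the interferon regulatory factor letters, 7.02% the STAT letters and 3.9% the NF-kB consensus. These are matches of letters and say nothing of binding. In GC content, the Icosl window was at 68.8% with 23 CpG dinucleotides, above 89.0% and 86.7% of all windows. Cd274 was at 50.4% with 11 CpG and Cd80 at 52.8% with 3, close to the median GC of 52.4% over all windows. The Cd274 start faces that of Plgrkt, which encodes a plasminogen receptor and lies on the reverse strand with 64 bases between the gene models.

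LPS raised 6 of the 7 members and lowered none; Cd80 did not pass the test. Of the 12196 genes tested with limma, 21.5% were called higher and 25.4% lower, a call being an adjusted p under 0.05. After centring each library on ribosomal protein genes, 60.6% of the calls were higher in place of 45.9%. The median difference between LPS and UT was 3.10 on the log2 scale over the 7 members and -0.06 over all tested genes. Among all tested genes ordered by this difference from the top, Cd40 was 34th, Tnfsf9 83rd, Cd274 88th, Icosl 356th, Cd83 850th, Cd86 1323rd and Cd80 3503rd. In the 6 that rose, every LPS library lay above every UT library, which held for 23.7% of tested genes.

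With BMS303141 before LPS, the 6 members that rose still stood above UT. Against LPS alone, Cd83 fell to 0.502 of its LPS level and was the only member called, while Tnfsf9, Icosl, Cd40, Cd80 and Cd86 were lower and Cd274 higher without passing the test. By limma, 1.16% of tested genes were called lower and 0.959% higher. The Cd83 call is weak: it ended without any 1 of 5 libraries. Against UT, the 6 members called higher with LPS were called higher with LPS + BMS too, a contrast in which 21.5% of tested genes were called higher and 25.6% lower (57.9% of calls higher in place of 45.7% after ribosomal protein centring). In those 6 every LPS + BMS library lay above every UT library, which held for 27.2% of tested genes. These 2 comparisons against UT share the UT libraries, and those with LPS share the LPS or LPS + BMS libraries.

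**Figure D1:**
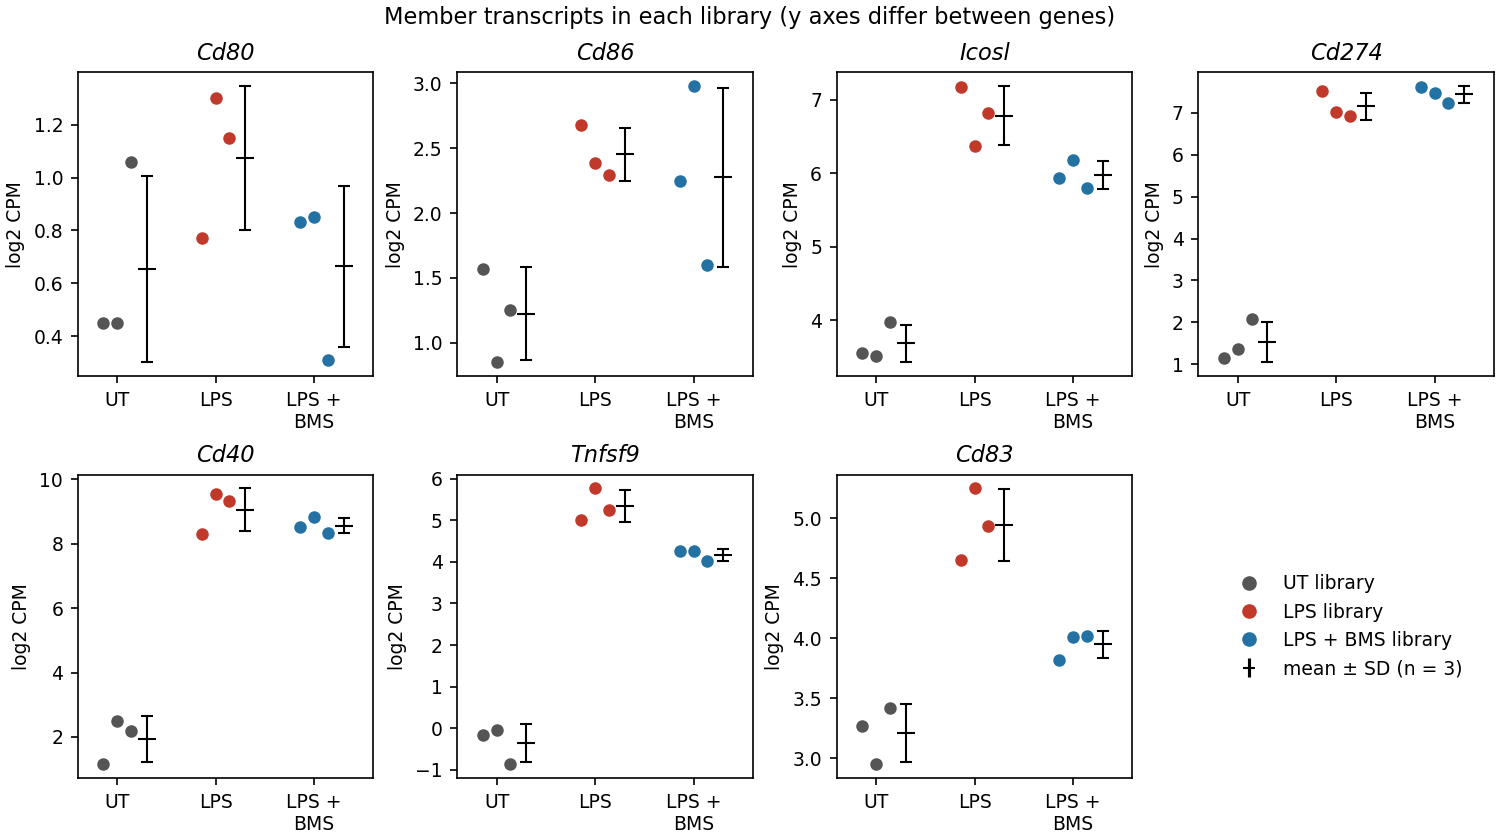
Level of each of the 7 genes in each library, in log2 CPM, with a separate y axis for each gene; points are libraries in replicate order and the bar beside them is the mean ± SD (n = 3). All LPS libraries lie above all UT libraries for every gene but Cd80, and all LPS + BMS libraries lie below all LPS libraries for Icosl, Tnfsf9 and Cd83.

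Among the B7 ligands of CD28 and CTLA-4, Cd80 was measured at 0.45, 0.45 and 1.06 log2 CPM in UT, 0.77, 1.30 and 1.15 in LPS, and 0.83, 0.85 and 0.31 in LPS + BMS. The 3 groups overlapped, and each library held only about 2 to 7 reads of the gene. The difference between LPS and UT was 0.42 (SE 0.44, 95% interval -0.52 to 1.37, adjusted p = 0.455, limma). The interval reaches past a doubling, so a rise of that size is not excluded. LPS + BMS differed from LPS by -0.41 (95% interval -1.35 to 0.54) and from UT by 0.02 (95% interval -0.93 to 0.96).

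Cd86, the other ligand of CD28 and CTLA-4, stood at 1.57, 0.85 and 1.25 log2 CPM in UT, 2.68, 2.39 and 2.29 in LPS, and 2.25, 2.98 and 1.60 in LPS + BMS. LPS libraries were all above UT libraries, and LPS + BMS libraries spread across the LPS range, with the lowest just above the highest UT library. Cd86 rose 2.35-fold with LPS (log2 difference 1.23, SE 0.37, adjusted p = 0.0159, limma), on about 6 to 28 reads a library. Without UT 2 the difference was 1.04 with an adjusted p of 0.0642 (limma), which ends the call. LPS + BMS differed from LPS by -0.18 (95% interval -0.99 to 0.63), and by 0.16 without LPS + BMS 3. Against UT the combination was 1.05 higher (95% interval 0.24 to 1.86, adjusted p = 0.0337, limma), a call that ended without UT 2 (0.116), UT 3 (0.0627), LPS + BMS 1 (0.0757) or LPS + BMS 2 (0.172).

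Icosl, the ligand of ICOS, measured 3.56, 3.52 and 3.98 log2 CPM in UT, 7.17, 6.37 and 6.82 in LPS, and 5.94, 6.18 and 5.80 in LPS + BMS. The 3 groups did not overlap: UT was lowest, LPS + BMS lay between and LPS was highest. LPS raised Icosl 8.58-fold (log2 difference 3.10, SE 0.20, adjusted p = 3.29e-08, limma). The combination remained 4.87-fold above UT (log2 difference 2.29, adjusted p = 8e-07, limma). The inhibitor's difference from LPS was -0.82 (SE 0.20, 95% interval -1.25 to -0.38), 0.568 of the LPS level, and missed the threshold at an adjusted p of 0.0565 (limma). The gap between the lowest LPS and the highest LPS + BMS library was 0.19. Without LPS 1 the inhibitor's difference from LPS was -0.62, with an adjusted p of 0.131 (limma).

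Cd274, which encodes PD-L1, stood at 1.15, 1.37 and 2.07 log2 CPM in UT, 7.52, 7.03 and 6.92 in LPS, and 7.62, 7.48 and 7.23 in LPS + BMS. All 6 LPS-treated libraries lay far above UT, and the LPS and LPS + BMS libraries overlapped. LPS raised it 49.4-fold (log2 difference 5.63, SE 0.23, adjusted p = 3.26e-10, limma), from about 9 to 13 reads a library to 330 to 390. It was the only member whose mean was higher in LPS + BMS than in LPS, by 0.29 (SE 0.23, 95% interval -0.20 to 0.78, adjusted p = 0.594, limma). The interval does not include a fall as large as the -0.99 estimated for Cd83. Its head-to-head neighbour Plgrkt, chosen for its position, rose by 0.89 with LPS (SE 0.21, adjusted p = 0.00349, limma).

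Cd40, the receptor for T cell CD40 ligand, showed the largest rise of the 7. It measured 1.15, 2.51 and 2.18 log2 CPM in UT, 8.30, 9.54 and 9.32 in LPS, and 8.51, 8.82 and 8.34 in LPS + BMS. UT libraries were all far below the others, while LPS 1 was lower than every LPS + BMS library and LPS 2 and LPS 3 were higher than all of them. LPS raised Cd40 138-fold (95% interval 83.3 to 227, log2 difference 7.10, SE 0.34, adjusted p = 1.32e-09, limma), and the combination stood 97.6-fold above UT. The UT level rested on about 10 to 21 reads a library. LPS + BMS differed from LPS by -0.50 (SE 0.34, 95% interval -1.22 to 0.23, adjusted p = 0.526, limma). Without LPS 1, the shallowest library, the difference was -0.87 (adjusted p = 0.168, limma), and without LPS 2 it was -0.25.

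Tnfsf9, the ligand of 4-1BB, was near the floor in untreated cells. Its levels were -0.16, -0.04 and -0.87 log2 CPM in UT, 5.01, 5.77 and 5.24 in LPS, and 4.26, 4.26 and 4.01 in LPS + BMS. The 3 groups did not overlap: UT was lowest, LPS + BMS lay between and LPS was highest. About 8 reads in the 3 UT libraries stood against 341 in the 3 LPS libraries, a ratio of 64.1 per read of depth (95% interval 32.2 to 150, counting error only). The fitted rise was 51.9-fold (log2 difference 5.70, SE 0.28, adjusted p = 2.01e-09, limma). LPS + BMS was lower than LPS by a log2 difference of -1.16 (SE 0.28, 95% interval -1.77 to -0.56), or 0.447 of the LPS level. That was the largest inhibitor difference of the 7, and its adjusted p of 0.0508 (limma) missed the threshold.

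Cd83, which guards MHC class II and CD86 at the surface, measured 3.27, 2.95 and 3.42 log2 CPM in UT, 4.65, 5.25 and 4.94 in LPS, and 3.82, 4.01 and 4.02 in LPS + BMS. The order was UT, LPS + BMS, LPS with no overlap between neighbours. LPS raised it 3.32-fold (log2 difference 1.73, SE 0.20, adjusted p = 1.19e-05, limma). With the inhibitor, Cd83 fell by 0.99 from its LPS level (SE 0.20, 95% interval -1.43 to -0.56, adjusted p = 0.0215, limma), and it stood 1.67-fold above UT (adjusted p = 0.00906, limma). Leaving out LPS 2, LPS 3 or any LPS + BMS library ended the call against LPS, with adjusted p values of 0.0897, 0.0719, 0.119, 0.0704 and 0.0899 (limma). The size moved less, from -1.14 to -0.84 over all single omissions.

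**Figure D2:**
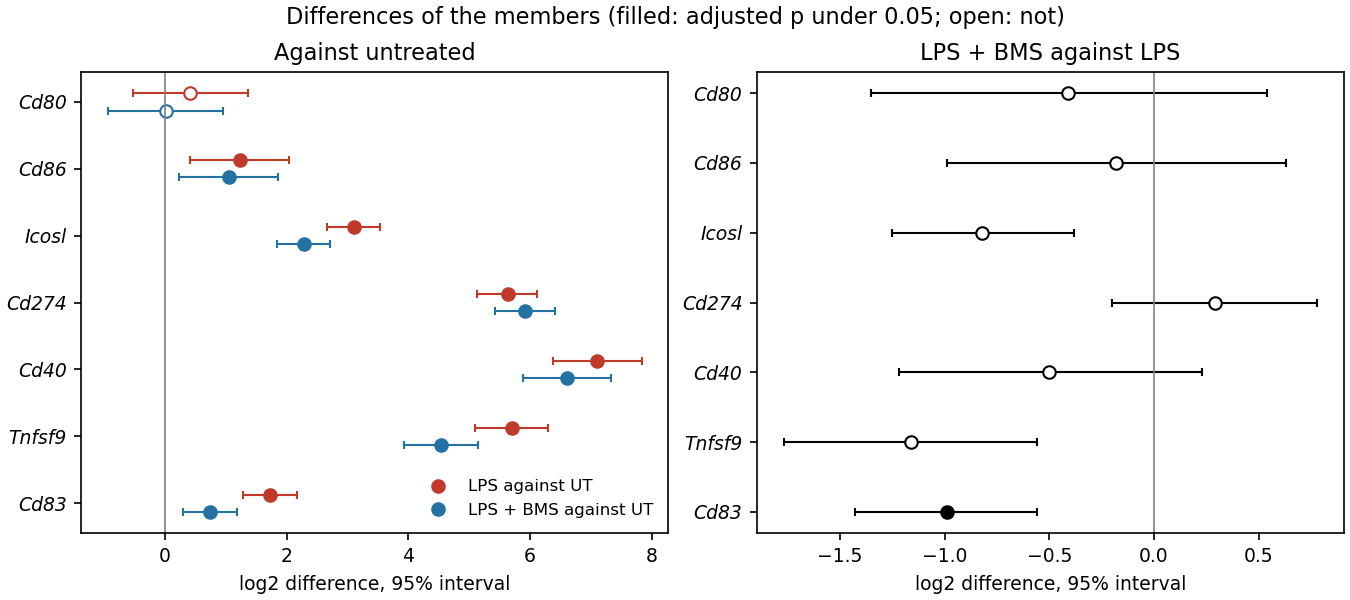
Log2 difference of each gene with its 95% interval, against UT on the left (LPS in red, LPS + BMS in blue) and for LPS + BMS against LPS on the right; filled points passed an adjusted p under 0.05. Against UT all genes but Cd80 are filled in both contrasts, from 1.23 for Cd86 to 7.10 for Cd40 with LPS, while against LPS Cd83 at -0.99 is the only filled point.

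Cd83, Icosl and Tnfsf9 were also the 3 members in which every LPS + BMS library lay below every LPS library, which held for 11.2% of tested genes. Of the 7 members 6 had a lower mean with the inhibitor, as did 6156 of the 12196 tested genes. Of those 6, Cd86 was higher by 0.16 without LPS + BMS 3, and Cd80 rested on about 2 to 7 reads a library. The median difference was -0.50 over the 7 members and 0.00 over all tested genes. In the order of tested genes from the most lowered, Tnfsf9 was 223rd, Cd83 367th and Icosl 594th of 12196. Cd40 followed at 1352nd, Cd80 at 1751st and Cd86 at 3753rd.

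**Figure D3:**
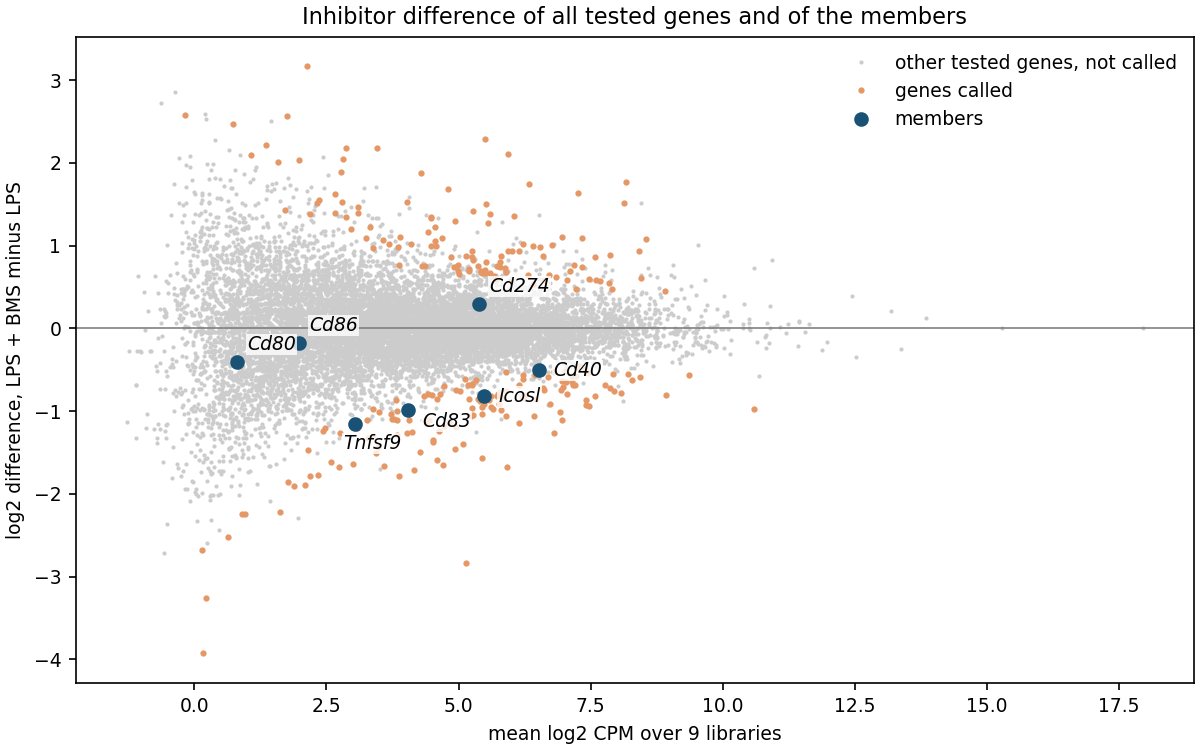
Log2 difference between LPS + BMS and LPS (y) against mean log2 CPM over the 9 libraries (x) for all 12196 tested genes; orange points passed an adjusted p under 0.05 and blue points are the 7 genes. Cd83, Tnfsf9 and Icosl lie below most tested genes, at -0.99, -1.16 and -0.82, and Cd274 lies just above 0.

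The calls for Tnfsf9 and Icosl sit at the threshold and moved across it. Tnfsf9 was called at an adjusted p of 0.0461 with a filter of 10 CPM in 3 libraries, 0.0332 after centring on ribosomal protein genes, 0.0147 when only the LPS and LPS + BMS libraries were fitted and 0.0173 without UT 3 (limma). Without LPS 1 it was called at 0.0389, and without UT 1 at 0.0441 (limma). Tnfsf9 was also called with library weights (0.00464) and with repeated quantile normalisation (0.0484, both limma). Icosl was called without UT 3 (0.0383) or LPS 2 (0.025) and with library weights (0.00314; limma). In the other direction, adjusted p values rose to 0.213 for Tnfsf9 and 0.24 for Icosl (limma) over the alternatives, with both genes lower under every one that was run.

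**Figure D4:**
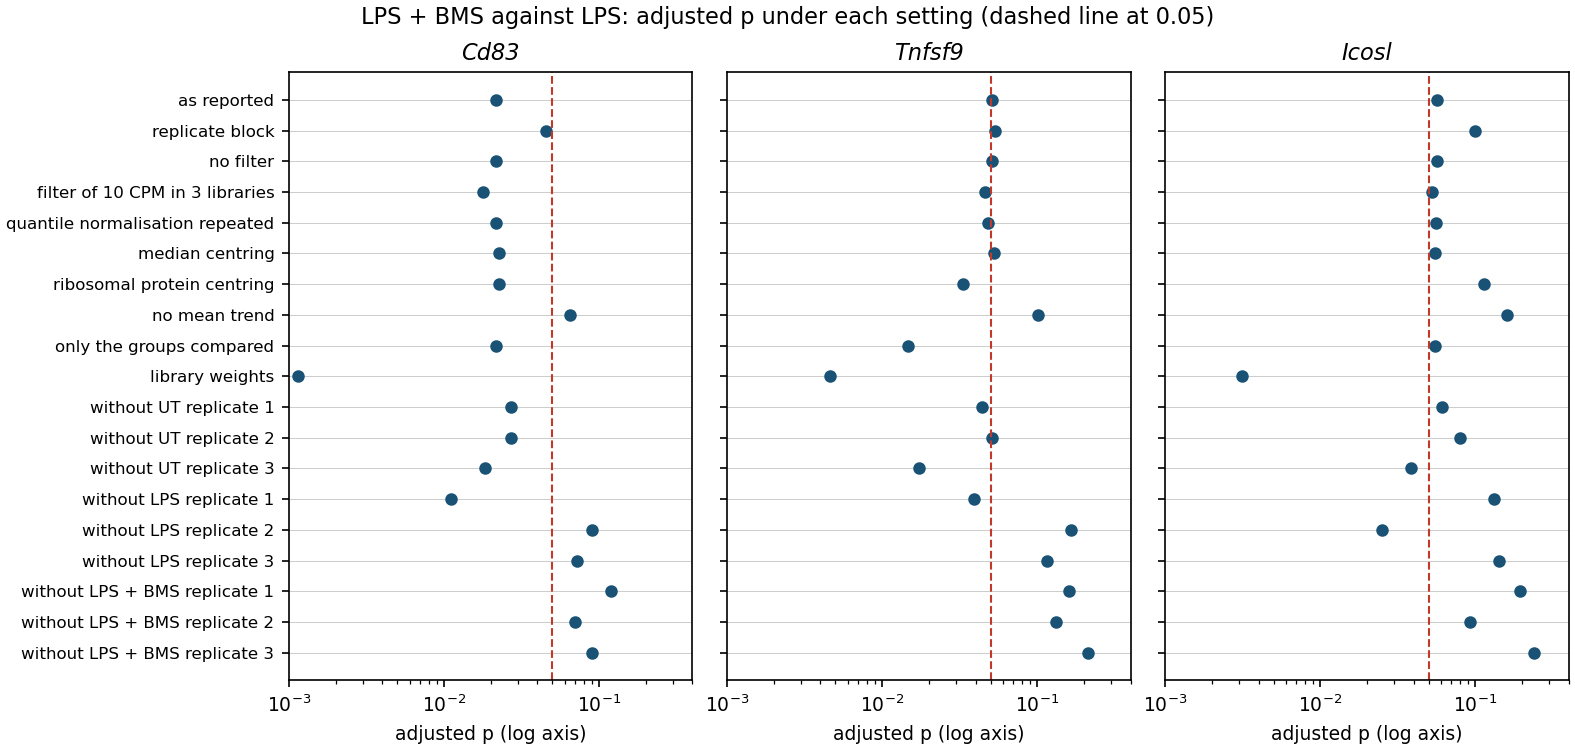
Adjusted p (x, log axis) for LPS + BMS against LPS in Cd83, Tnfsf9 and Icosl as reported and under each alternative setting or omitted library (y); the dashed line is 0.05. Cd83 crosses to the right of the line in 6 settings, reaching 0.119, and Tnfsf9 and Icosl fall on both sides of it.

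The rest of the pathway was read from lists of named genes. Of other ligands related to the members, Vsir, the B7-like checkpoint molecule VISTA, fell with LPS by 2.58 (SE 0.12, adjusted p = 1.11e-09, limma) and was the only one of 9 B7 and butyrophilin-like genes listed in the table. With the inhibitor it differed from LPS by -0.31 (adjusted p = 0.24, limma). Of 12 other tumour necrosis factor superfamily ligands 3 were listed: LPS raised 2 and lowered 1, with a median of 3.45. Tnfsf15, the ligand of death receptor 3, measured 0.30, 0.85 and 0.34 log2 CPM in UT, 6.72, 6.35 and 6.22 in LPS, and 5.83, 5.45 and 4.90 in LPS + BMS. As for Tnfsf9, its groups did not overlap, and the inhibitor difference of -1.03 (SE 0.25, adjusted p = 0.0526, limma) missed the threshold. Tnfsf10, which encodes the death ligand TRAIL, rose with LPS by 3.45 (SE 0.60, adjusted p = 0.000366, limma). Its UT values were near the floor, at -0.79, -1.58 and -2.33 log2 CPM, the last being the lowest value of UT 3. The size of that rise depends on the floor.

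Among 19 tested costimulatory and checkpoint partners of other families, LPS raised 9 and lowered 3, with a median of 0.94. Cd84, an adhesion receptor of the SLAM family, fell by 2.06 (SE 0.12, adjusted p = 1.16e-08, limma). Slamf1, of the same family, was at the lowest value of each UT library and at 4.23, 3.98 and 3.94 log2 CPM in LPS, with 4.05, 4.08 and 4.51 in LPS + BMS. Its LPS and LPS + BMS libraries overlapped.

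With the inhibitor, 3 of these 19 partners fell and none rose, with a median of -0.21. Nectin2 and Pvr encode ligands that T and NK cells read through DNAM-1 and TIGIT. Nectin2 measured 2.48, 2.56 and 2.95 log2 CPM in UT, 5.21, 5.37 and 5.37 in LPS, and 4.02, 4.50 and 4.09 in LPS + BMS. It fell from LPS by 1.11 (SE 0.20, adjusted p = 0.0102, limma). Pvr followed the same order of groups, at 3.38, 3.45 and 3.72 in UT, 5.36, 5.44 and 5.05 in LPS, and 4.48, 4.56 and 4.42 in LPS + BMS, a fall of 0.79 (SE 0.17, adjusted p = 0.0283, limma). Slamf9 measured 2.95, 2.84 and 2.75 in UT, 3.35, 3.51 and 2.89 in LPS and 2.07, 1.56 and 1.29 in LPS + BMS, so the combination lay below both other groups. It fell from LPS by 1.61 (SE 0.28, adjusted p = 0.0102, limma). The Nectin2 call ended without LPS + BMS 1 or 3 (adjusted p up to 0.0791, limma) and the Slamf9 call without LPS + BMS 3 (0.0713, limma). For Pvr, the call ended under 9 of 19 alternatives (adjusted p up to 0.135, limma), among them leaving out LPS 1, LPS 2 or any LPS + BMS library.

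Of 6 genes for T cell binding partners of the members, receptors and CD40 ligand, 2 were listed. Tnfrsf9, the gene of 4-1BB, was higher with LPS by 2.54 (SE 0.65, adjusted p = 0.0056, limma), and Cd28 was lower by 2.82 (SE 0.70, adjusted p = 0.00486, limma). Both were near the floor in at least 1 group, and neither was called in LPS + BMS against LPS.

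CD40 signals through TRAF adaptors to both NF-kB pathways. Of 14 tested genes of this route LPS raised 10 and lowered 1, with a median of 1.65. Traf1, an adaptor that is itself an NF-kB target, rose by 4.46 (SE 0.14, adjusted p = 2.55e-11, limma), and Tnfaip3, the NF-kB inhibitor A20, by 5.56 (SE 0.21, adjusted p = 1.7e-10, limma). The median inhibitor difference was -0.03, and 1 of the 14 was called. Ikbkb, the kinase IKK-beta, fell by 0.47 (SE 0.11, adjusted p = 0.0372, limma). That call ended under 12 of 19 alternatives (adjusted p up to 0.19, limma), among them leaving out UT 2 or any LPS or LPS + BMS library.

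In all, 10 genes that control surface stability of CD86, CD83 and PD-L1 were tested. LPS raised 3 of the 10 and lowered 4, with a median of -0.42. Of all tested genes, 21.5% were called higher with LPS and 25.4% lower. March1 encodes the ubiquitin ligase that removes CD86 and MHC class II and is opposed by CD83. It measured 4.82, 4.86 and 4.84 log2 CPM in UT, 6.25, 5.58 and 5.73 in LPS, and 6.80, 6.55 and 6.84 in LPS + BMS. The groups did not overlap, and LPS + BMS was highest. It rose with LPS by 1.01 (SE 0.17, adjusted p = 0.000232, limma) and from LPS to LPS + BMS by 0.88 (SE 0.17, adjusted p = 0.0153, limma). The latter call ended under 7 of 19 alternatives (adjusted p up to 0.0949, limma), among them leaving out LPS 2, LPS 3, LPS + BMS 1 or LPS + BMS 3. Cop1, a ubiquitin ligase, rose with LPS by 0.96 (SE 0.14, adjusted p = 9.78e-05, limma).

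Interferon and JAK-STAT signals are known to drive Cd274. Of 13 tested genes of that route LPS raised 10 and lowered 2, with a median of 0.79. Jak2, on the forward strand at chr19:29251828-29313080 with 54.4 kb to Cd274 and 3 coding genes between them, measured 5.07, 5.09 and 5.07 log2 CPM in UT, 9.20, 9.31 and 9.34 in LPS and 9.41, 9.28 and 9.44 in LPS + BMS. It rose with LPS by 4.21 (SE 0.10, adjusted p = 4.44e-12, limma), and its LPS and LPS + BMS libraries overlapped, as those of Cd274 did. Socs1, the feedback inhibitor of JAK kinases, was at the lowest value of UT 2 and UT 3, at 3.27, 6.69 and 6.02 in LPS and at 6.22, 6.75 and 5.32 in LPS + BMS. The median inhibitor difference was 0.09. Stat2 alone was called, falling by 0.86 (SE 0.16, adjusted p = 0.0148, limma). That call ended under 5 of 19 alternatives (adjusted p up to 0.0948, limma), among them leaving out LPS 2, LPS + BMS 1 or LPS + BMS 3.

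**Figure D5:**
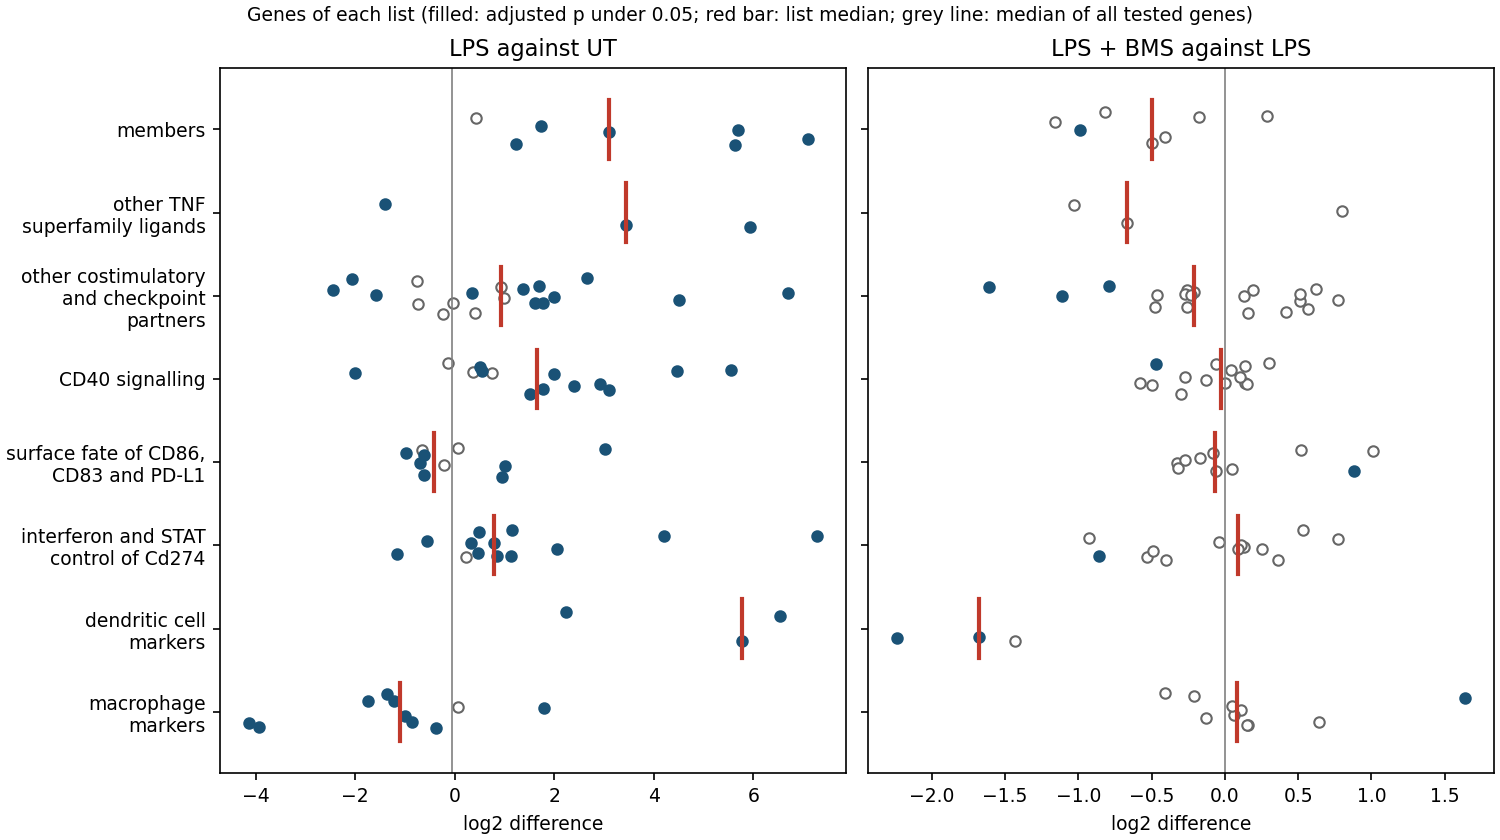
Log2 differences of the genes of each list, for LPS against UT on the left and LPS + BMS against LPS on the right; each point is a gene, filled where the adjusted p was under 0.05, with the list's median as a red bar and the median of all tested genes as a grey line. The 7 members have medians of 3.10 and -0.50, and the CD40 signalling genes 1.65 and -0.03. Some dendritic cell and partner genes are at the lowest value in every UT library, and their left-hand positions depend on that floor.

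Markers of the labelled cell type and of others were read the same way. All 10 macrophage markers were listed; LPS lowered 8 and raised 1, and their summed level was 8910 to 9440 CPM in UT, 4120 to 5000 in LPS and 4940 to 5060 in LPS + BMS. Mertk, a receptor for apoptotic cells, fell with LPS by 4.14 (SE 0.24, adjusted p = 9.09e-09, limma).

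Mature dendritic cells also carry the members. Of 14 dendritic cell markers 3 were listed, and Flt3, Zbtb46, Xcr1 and Clec9a were not. All 3 were called higher with LPS and 2 lower with the inhibitor. They summed to 3.34 to 4.59 CPM in UT, 39.1 to 45.9 in LPS and 11.4 to 12.7 in LPS + BMS. Their sum thus followed the order of groups seen for Cd83, Icosl and Tnfsf9, and its part in those results was not tested. Itgax, the integrin CD11c, which macrophages also express, measured 1.75, 1.61 and 2.07 log2 CPM in UT, 4.49, 3.75 and 3.88 in LPS, and 2.41, 2.42 and 2.25 in LPS + BMS. It rose with LPS by 2.23 (SE 0.27, adjusted p = 1.35e-05, limma) and fell from LPS to LPS + BMS by 1.68 (SE 0.27, adjusted p = 0.00587, limma). Ccl22, a chemokine for regulatory T cells, was at the lowest value of each UT library, at 3.35, 4.30 and 3.99 in LPS and at 1.52, 1.81 and 1.60 in LPS + BMS, a fall of 2.24 (SE 0.42, adjusted p = 0.0152, limma) that lost its call without LPS 2, LPS 3 or any LPS + BMS library (adjusted p up to 0.0936). Fscn1, an actin-bundling protein, differed between LPS + BMS and LPS by -1.43 (adjusted p = 0.141, limma).

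None of 9 B cell markers was listed. Of 11 T and NK cell markers 2 were listed, Il7r and Lck, and Cd3e was not. Their sum was 120 to 153 CPM in UT, 15.6 to 34.1 in LPS and 22.6 to 32.8 in LPS + BMS, with Il7r lower in LPS by 2.91 (SE 0.22, adjusted p = 1.3e-07, limma) and Lck at a difference of 0.98 (adjusted p = 0.253, limma). The 3 listed of 10 neutrophil markers summed to 8.84 to 31.4, 41.3 to 69 and 184 to 272 CPM in the same order of groups, and LPS raised 2 of them, Csf3r by 2.70 (SE 0.32) and S100a8 by 2.17 (SE 0.34). S100a9, the third, was not called with LPS or for the inhibitor. It measured -1.17, 0.25 and 3.37 log2 CPM in UT, 0.18, 1.09 and -0.11 in LPS, and 2.74, -0.06 and -0.05 in LPS + BMS. S100a8, an alarmin subunit, made up most of the LPS + BMS sum, at 7.80, 7.42 and 8.04 log2 CPM. From LPS to LPS + BMS, S100a8 rose by 2.29 (SE 0.34, adjusted p = 0.00377, limma), a call lost under 1 of 19 alternatives (0.0564, limma). Csf3r, the granulocyte colony-stimulating factor receptor, differed by 0.29 (adjusted p = 0.713, limma).

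Hdc, histidine decarboxylase, was the only one of 7 mast cell and basophil markers listed. It rose with LPS by 5.56 (SE 0.15, adjusted p = 9.55e-12, limma) and fell from LPS to LPS + BMS by 0.70 (SE 0.15, adjusted p = 0.0319, limma). The latter call was lost under 8 of 19 alternatives (adjusted p up to 0.188, limma), among them leaving out LPS 2, LPS 3 or any LPS + BMS library. Of 8 stromal markers 4 were listed, at a summed 6.09 to 14 CPM in UT, 13.7 to 23.7 in LPS and 6.19 to 13.5 in LPS + BMS, and none was called for the inhibitor. Pdgfrb was at the lowest value of each UT library and at 3.10, 3.07 and 1.96 log2 CPM in LPS, and Sparc, a matrix protein, differed between LPS and UT by 0.50 (adjusted p = 0.37, limma). Among 8 mitochondrially encoded transcripts LPS lowered 4, among them mt-Nd5 by 0.63 and mt-Nd1 by 0.43, and raised 1, with a sum of 4100 to 5120 CPM in UT, 2850 to 3780 in LPS and 3790 to 4180 in LPS + BMS. No mitochondrial transcript was called for the inhibitor (limma). The part of these markers in the members' values was not tested.

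The genes whose pattern over the 9 libraries was most like each member were found by the root mean square difference between log2 profiles, each centred on its own mean, among 5621 tested genes at or above the median level. Nearest to Cd274 were Ier3 (0.207) and Tfec (0.295), which held 10.09 and 7.21 log2 CPM in LPS and 10.33 and 7.40 in LPS + BMS on average. Icosl was nearest to Mapkbp1 (0.167) and Nfkb2 (0.231), the latter the precursor p100 of the alternative NF-kB pathway. Cd83 was nearest to Ddx58 (0.202), the RNA sensor RIG-I, and Daxx (0.204), which averaged 6.61 and 6.59 in LPS and 5.69 and 5.75 in LPS + BMS. Tnfsf9 was nearest to Gbp2 (0.276) and Gbp7 (0.29), which encode interferon-inducible GTPases of a family with similar sequences. For Cd40 the nearest were Cdc42ep2 (0.331) and the chemokine gene Ccl3 (0.37). Cd86 was nearest to Tdrd7 (0.268) and Eif2s1 (0.296), and Cd80, with its small range, to Ccdc36 (0.129) and Usp3 (0.163). Most of these neighbours changed with the measure: ranked by Pearson correlation instead, both were kept for Cd80, 1 each for Cd274, Icosl and Cd83, and 0 for Cd40, Cd86 and Tnfsf9. Without LPS 1, both were kept for Cd274, Icosl and Tnfsf9, 1 each for Cd40 and Cd80, and 0 for Cd83 and Cd86.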

How the data were processed

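Messenger RNA was measured in 9 libraries of mouse macrophages, 3 per group. Per the labels' protocols, 100 ng of RNA was primed at the poly(A) tail (QuantSeq 3′ FWD kit, Lexogen) and amplified with 16 PCR cycles; no molecular identifiers are mentioned. Tools listed without roles in the submitters' processing notes are featureCounts 1.5.1, STAR 2.5.2b, edgeR, limma and MultiQC, and the build is GRCm38 (mm10). Annotation release, strand setting and gene filter are not given there. The table deposited by the authors holds scores, log2 in scale. They were read as log2 CPM, quantile-normalised, because every library holds nearly the same sorted values; an equal shift of most genes cannot be seen in them. Depth and reads are estimates from the steps between low values.

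A value of 0 or more on the log2 scale was required in 3 or more libraries. Of 12204 genes 12196 passed and were fitted in limma 3.58.1 (R 4.3.3) with a mean per group and a mean trend, two-sided, with Benjamini-Hochberg adjustment over all of them and a threshold of 0.05. The script was tested on simulated data. The members and gene lists were chosen with earlier results of these data known. All members were named, with the 2 genes of smallest p for LPS against UT in each list and any gene called for the inhibitor; for likeness, the 2 nearest genes. A result that this rule selects is not reported here. Alternatives covered the filter, scaling, mean trend, library weights, the libraries fitted, a replicate block, a fold minimum of 2 and each library left out. For the genes named beside the members they were added after seeing the data.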

Additional observations from a re-analysis of the deposited data

How the results depend on the processing

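No called difference of a member changed direction under the alternatives that were run. Of differences that were not called, Cd86 in LPS + BMS against LPS (-0.18 as reported) ran from -0.53 to 0.16 with 1 library left out, positive without LPS + BMS 3, and Cd80 in LPS + BMS against UT (0.02 as reported) from -0.09 to 0.22, negative without UT 1, UT 2, LPS + BMS 1 or LPS + BMS 2. Among the other named genes, LPS + BMS against LPS ran from -0.12 to 0.02 for mt-Nd5 (positive without LPS + BMS 1), -0.26 to 1.45 for Socs1 (negative without LPS 1) and -0.17 to 0.04 for Traf1 (positive without LPS 2), and LPS + BMS against UT from -0.37 to 0.77 for Lck (negative without LPS + BMS 1). The cause was not tested. Cd80 and Cd86 did not pass the filter of 10 CPM in 3 libraries and have no value there. For LPS + BMS against LPS, 117 genes were called higher as reported, 75 with ribosomal protein centring, 43 with no mean trend, 407 with library weights, 56 at 2-fold or more and 27 to 140 with 1 library left out. Called lower were 141 as reported, 56 with no mean trend, 407 with library weights, 63 at 2-fold or more and 35 to 177 with 1 library left out. Of the members, 1 was called lower as reported, 2 each with the 10 CPM filter, repeated quantile normalisation, ribosomal protein centring or only the groups compared, 3 with library weights, 0 with no mean trend or at 2-fold or more, and 0 to 3 with 1 library left out. For LPS against UT, 2-fold or more left 1560 higher and 1749 lower, and ribosomal protein centring 2058 lower; for LPS + BMS against UT, 2-fold or more left 1565 and 1755. The cause was not tested, beyond the higher bar that a fold minimum sets.

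Ribosomal protein centring moved the median of all genes for LPS against UT from -0.06 to 0.15, and for LPS + BMS against UT from -0.05 to 0.10. The labels do not say that replicate numbers link libraries, and deviations of same-numbered libraries correlated from -0.30 to 0.17. With the replicate block, 2530 and 3001 genes were called higher and lower for LPS against UT, 95 and 113 for LPS + BMS against LPS, and 2537 and 3021 for LPS + BMS against UT; no member's call changed.

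Depth limits Cd80 and Cd86, with 2 to 28 reads a library, and the untreated level of Tnfsf9, with 1 to 4.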
